A study of Mus musculus with 12 samples.

Results

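The genes described here encode subunits and regulators of the sodium pump: the beta subunits Atp1b1 and Atp1b2 and the FXYD genes Fxyd1, Fxyd2, Fxyd5, Fxyd6 and Fxyd7. They are the 7 rows, of 32531 gene rows in the count tables, whose symbol is one of these names. All 7 were among the 18128 genes tested. They were chosen because Fxyd7 was strongly enriched in the immunopurified RNA of both regions, so their IP against input values are given as a description, without tests. The libraries came from adult mice of the transgenic line JX883, in which a fusion of EGFP with the ribosomal protein Rpl10a is expressed from Slc17a6 regulatory sequence. VGLUT2, the product of Slc17a6, loads glutamate into synaptic vesicles of many subcortical excitatory neurons. The 4 groups, of 3 libraries each, were RNA captured with tagged ribosomes from the hypothalamus (hypothalamus IP), total RNA of the hypothalamus (hypothalamus input), and the same fractions of the midbrain (midbrain IP and midbrain input). All 4 groups carry the transgene of this 1 line, and no IP of untagged mice is named in the labels.

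The sodium pump, or Na,K-ATPase, uses ATP to carry sodium out of the cell and potassium into it, and in neurons and glia it restores the ion gradients that firing runs down. A catalytic alpha subunit does the transport, and a glycosylated beta subunit is needed for its folding and delivery to the plasma membrane. FXYD proteins are small membrane-spanning proteins that bind the alpha-beta complex and tune its affinity for sodium and potassium. In the brain Atp1b1 is the main beta subunit of neurons, and Atp1b2 was first described as an adhesion molecule on glia.

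In the mm10 build, with GENCODE M21 models, Atp1b1 lies on chromosome 1 (164437109 to 164458355, minus strand) and Atp1b2 on chromosome 11 (69599736 to 69605942, minus strand). Fxyd5 (31032722 to 31042481), Fxyd7 (31042513 to 31051467) and Fxyd1 (31051678 to 31057199) lie side by side on the minus strand of chromosome 7, with 31 bp between Fxyd5 and Fxyd7 and 210 bp between Fxyd7 and Fxyd1. Fxyd6 (45370185 to 45396159) and Fxyd2 (45399669 to 45410278) lie on the plus strand of chromosome 9, with 3509 bp between them. Of the 3 neighbours on chromosome 7, Fxyd7 had higher and Fxyd1 and Fxyd5 had lower values in IP than in input. Of the exon bases of Atp1b1, 575 are shared with Nme7 on the opposite strand, and 60 of Fxyd5 with Mir7050, so part of these counts could belong to the partner gene.

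The bases before the RefSeq start are shown for Atp1b1, Fxyd1 and Fxyd6, 3 of the 4 genes with an entry in the promoter table, because Atp1b1 was abundant in all groups, Fxyd1 was higher in input and Fxyd6 was higher in IP. Each is 250 bases of GRCm38.p6 (mm10) read 5′ to 3′ on the gene's strand. Capitals mark matches, on either strand, to the GC box GGGCGG, the CCAAT box CCAAT or the TATA box TATAAA.
Atp1b1, chr1:164458356-164458605, minus strand: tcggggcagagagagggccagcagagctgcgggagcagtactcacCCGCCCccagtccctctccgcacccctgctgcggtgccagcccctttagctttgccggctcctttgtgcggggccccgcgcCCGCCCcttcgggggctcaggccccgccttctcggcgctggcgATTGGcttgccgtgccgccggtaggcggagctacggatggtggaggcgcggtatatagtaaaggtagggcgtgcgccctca
Fxyd1, chr7:31054854-31055103, minus strand: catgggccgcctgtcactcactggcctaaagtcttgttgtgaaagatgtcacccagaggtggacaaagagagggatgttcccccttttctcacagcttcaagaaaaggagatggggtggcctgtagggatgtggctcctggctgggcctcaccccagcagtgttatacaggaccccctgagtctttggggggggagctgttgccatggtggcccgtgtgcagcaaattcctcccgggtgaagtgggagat
Fxyd6, chr9:45369935-45370184, plus strand: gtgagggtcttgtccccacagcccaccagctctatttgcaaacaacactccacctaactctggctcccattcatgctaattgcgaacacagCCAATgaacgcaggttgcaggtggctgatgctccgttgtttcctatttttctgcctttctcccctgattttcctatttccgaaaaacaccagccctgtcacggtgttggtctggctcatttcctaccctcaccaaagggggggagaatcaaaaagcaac
The window of Atp1b1 was 70.4% G and C with 24 CpG dinucleotides, and 88.0% of 32851 mouse promoter windows of this length held fewer. It held 2 GC boxes and 1 CCAAT box. The window of Fxyd1 had 3 CpG and none of the 3 motifs, and that of Fxyd6 had 5 CpG and 1 CCAAT box, where the median window had 6 CpG. The Fxyd1 window precedes the RefSeq start but lies within the GENCODE model of the gene (31051678 to 31057199, 17 transcripts), which begins further upstream. The windows of Atp1b1 and Fxyd6 directly adjoin the 5′ ends of their models. Among all windows 32.7% held a GC box, 33.8% a CCAAT box and 12.4% a TATA box. A match to these letters is a description only.

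Library totals over genes ran from 41909019 to 55148109 counts, and a floor of 3 counts per library stood for 0.0537 to 0.071 CPM, where CPM are counts per library size after scaling by the trimmed mean of M values. Slc17a6 averaged 2120 ± 1230 CPM in the hypothalamus IP and 349 ± 154 CPM in its input (log2 fold change 2.60, SE 0.49, adjusted p = 0.00184 in edgeR's quasi-likelihood test). It averaged 2740 ± 1090 CPM in the midbrain IP and 775 ± 402 CPM in its input (1.82, SE 0.48, adjusted p = 0.0116). Markers of the hypothalamus summed to 164 to 437 CPM in the hypothalamus IP, 223 to 515 CPM in the hypothalamus input, 1.96 to 4.78 CPM in the midbrain IP and 2.9 to 9.86 CPM in the midbrain input. Markers of the midbrain summed to 3.8 to 6.69 CPM in the hypothalamus IP, 14.2 to 44.9 CPM in the hypothalamus input, 8.21 to 15.6 CPM in the midbrain IP and 58.5 to 98.9 CPM in the midbrain input. The IP libraries numbered 1 stood apart: Rn45s, the precursor of ribosomal RNA, held 12.3% of counts in the hypothalamus and 12.5% in the midbrain. It held 5.21% to 6.85% in other IP libraries and 2.57% to 3.97% in input libraries. The inputs numbered 1 did not stand apart in Rn45s, at 3.31% in the hypothalamus and 2.57% in the midbrain. They had the most reads ambiguous between genes, at 16126812 and 16516586, against 3985265 to 9205718 in other inputs. Calls of the 7 genes, and their values that moved by over 1.5 times, are given with and without the 4 libraries numbered 1. IP libraries all carry 1 index and inputs another, so fraction and index cannot be told apart.

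Atp1b1 was abundant in every group, at a higher mean in IP than in input of both regions. It was at 2270, 839 and 1150 CPM in replicates 1, 2 and 3 of the hypothalamus IP, against 1560, 571 and 784 CPM in the hypothalamus input. Midbrain levels of Atp1b1 were 2640, 1730 and 1990 CPM in the IP, against 2240, 1380 and 1410 CPM in the input. The groups overlap in both regions, because replicate 1 is the highest library of each group. The log2 fold change of IP against input was 0.55 (SE 0.40) in the hypothalamus and 0.34 (SE 0.40) in the midbrain. A fit with a replicate block gave 0.55 (SE 0.15) in the hypothalamus. In the fit with no block, the hypothalamus value was 0.04 without hypothalamus IP replicate 1 and 1.07 without hypothalamus input replicate 1. The midbrain value in that fit was 0.15 without midbrain IP replicate 1 and 0.60 without midbrain input replicate 1. Between libraries of the same number, whose IP and input shared a lane, Atp1b1 was higher in IP by 0.54, 0.56 and 0.55 in the hypothalamus and by 0.24, 0.33 and 0.49 in the midbrain on the log2(CPM + 0.5) scale. These same-numbered differences therefore spread far less than the levels did. Between midbrain IP and input the number was not taken as pairing, so same-numbered midbrain differences, here and below, are a description.

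Atp1b2 had the opposite direction, with a lower mean in IP than in input of both regions. It was at 604, 207 and 276 CPM in the hypothalamus IP, against 639, 335 and 342 CPM in the hypothalamus input. It was at 649, 360 and 450 CPM in the midbrain IP, against 844, 568 and 578 CPM in the midbrain input. The groups overlap in both regions. The log2 fold change was -0.28 (SE 0.38) in the hypothalamus and -0.45 (SE 0.38) in the midbrain. The hypothalamus value ran from -0.86 without hypothalamus IP replicate 1 to 0.10 without hypothalamus input replicate 1, so its sign turned. It was also above 0, at 0.01, without hypothalamus IP replicate 2, and it was -0.49 without the 4 libraries numbered 1. With the replicate number as a block it was -0.34 (SE 0.15). IP was below input in all 6 same-numbered pairs, by -0.08 to -0.69 in the hypothalamus and -0.36 to -0.66 in the midbrain. In bulk RNA such as this, fewer cells of a type and less RNA per cell cannot be told apart.

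**Figure D1:**
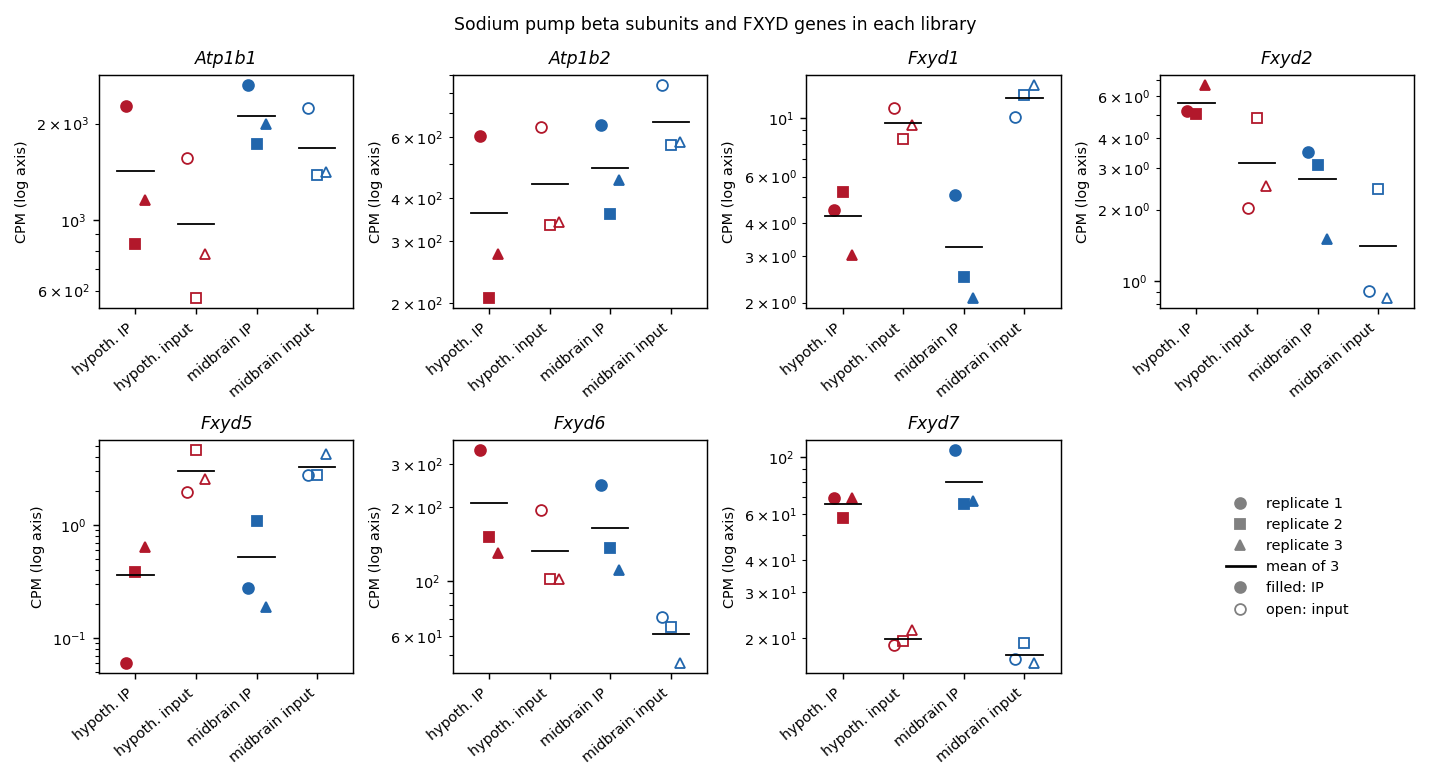
CPM (log axis) of each gene in each library, with red for hypothalamus and blue for midbrain, filled symbols for IP and open symbols for input, a symbol shape for each replicate number and a bar for the mean of 3 libraries. Fxyd7 separates IP (57.9 to 106 CPM) from input (16 to 21.4 CPM) in both regions, whereas replicate 1 is the highest library of every group for Atp1b1, Atp1b2 and Fxyd6.

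Fxyd7, a regulator expressed mainly in brain, was the member with the largest IP excess in both regions. It was at 69.7, 57.9 and 69.2 CPM in the hypothalamus IP, against 18.7, 19.4 and 21.4 CPM in the hypothalamus input. It was at 106, 65.8 and 67.3 CPM in the midbrain IP, against 16.5, 19.1 and 16 CPM in the midbrain input. Every IP library was above every input library. The log2 fold change was 1.73 (SE 0.19, 3.31-fold) in the hypothalamus and 2.22 (SE 0.20, 4.64-fold) in the midbrain. Replicate 1 stood above the others only in the midbrain IP, and without the 4 libraries numbered 1 the values were 1.64 and 1.93.

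Fxyd6, also called phosphohippolin, is the other FXYD gene of high level in these libraries. It was at 340, 152 and 130 CPM in the hypothalamus IP, against 194, 102 and 102 CPM in the hypothalamus input, and these groups overlap. It was at 246, 136 and 111 CPM in the midbrain IP, against 71.5, 65.2 and 46.6 CPM in the midbrain input, where every IP library was higher. The log2 fold change was 0.64 (SE 0.40) in the hypothalamus and 1.43 (SE 0.41) in the midbrain. The hypothalamus value was 0.08 without hypothalamus IP replicate 1, 1.02 without hypothalamus input replicate 1, and 0.58 (SE 0.16) with the replicate number as a block. All 6 same-numbered pairs had IP above input, by 0.8, 0.57 and 0.34 in the hypothalamus and 1.78, 1.05 and 1.24 in the midbrain.

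Fxyd2, the gamma subunit best known from kidney tubules, was low everywhere. It was at 5.2, 5.05 and 6.69 CPM in the hypothalamus IP, against 2.04, 4.85 and 2.52 CPM in the hypothalamus input. It was at 3.49, 3.07 and 1.5 CPM in the midbrain IP, against 0.903, 2.45 and 0.851 CPM in the midbrain input. IP libraries lay above all input libraries in the hypothalamus, and the groups overlap in the midbrain. Its log2 fold change was 0.85 (SE 0.50) in the hypothalamus and 0.94 (SE 0.51) in the midbrain. The midbrain value was 0.47 without the 4 libraries numbered 1.

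Fxyd1 and Fxyd5 were lower in IP than in input of both regions. Fxyd1, or phospholemman, is known as a pump regulator of heart and skeletal muscle. It was at 4.49, 5.23 and 3.03 CPM in the hypothalamus IP, against 10.9, 8.29 and 9.42 CPM in the hypothalamus input. It was at 5.1, 2.51 and 2.09 CPM in the midbrain IP, against 10.1, 12.2 and 13.3 CPM in the midbrain input. No IP library reached the lowest input library in either region. The log2 fold change was -1.16 (SE 0.34) in the hypothalamus and -1.87 (SE 0.35) in the midbrain, where it was -2.46 without the 4 libraries numbered 1.

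Fxyd5, or dysadherin, is known from epithelia. Its counts in IP were few: 3, 21 and 34 counts in the hypothalamus IP and 13, 57 and 9 counts in the midbrain IP. These came to 0.0604, 0.386 and 0.637 CPM in the hypothalamus IP, against 1.96, 4.58 and 2.58 CPM in the hypothalamus input. They came to 0.276, 1.09 and 0.19 CPM in the midbrain IP, against 2.79, 2.8 and 4.3 CPM in the midbrain input. All input libraries lay above all IP libraries in each region. The log2 fold change was -3.06 (SE 0.82) in the hypothalamus and -2.65 (SE 0.81) in the midbrain. Hypothalamus IP replicate 1 was at the floor of 3 counts.

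Markers of other cell types moved in the same direction as Fxyd1, Fxyd5 and Atp1b2. Astrocyte markers summed to 158 to 212 CPM in the hypothalamus IP and 858 to 1400 CPM in its input, and 202 to 319 CPM in the midbrain IP and 1120 to 1610 CPM in its input, with 12 of 12 markers lower in IP in each region at an adjusted p under 0.05 in edgeR. Ependymal and choroid plexus markers summed to 15.4 to 17.1 CPM in the hypothalamus IP and 57.3 to 71.2 CPM in its input, with 9 of 12 lower and 1 higher. They summed to 16.8 to 44.7 CPM in the midbrain IP and 33.8 to 977 CPM in its input, with 9 of 12 lower. The lists of oligodendrocytes (12 of 12), their precursors (7 of 8), microglia (11 of 12) and endothelial and mural cells (9 of 12) were lower in IP in both regions. Cldn5 and Slco1a4, endothelial markers, were at 0 in the hypothalamus IP, as were the microglial C1qa and the choroid plexus gene Folr1. Tmem212 of ependymal cells was at 0 in the midbrain IP. General neuron markers summed to 20000 to 24300 CPM in the hypothalamus IP and 10200 to 13600 CPM in its input, and to 24700 to 30900 CPM in the midbrain IP and 17300 to 19400 CPM in its input. Of 12 neuron markers, 9 were higher in IP in the hypothalamus and 5 in the midbrain, beside 14.2% and 14.0% of all genes. Slc17a6, whose regulatory sequence drives the tag, is 1 of the 12. It is part of these sums and is among the markers higher in each region. The part of these cell types in the values of the FXYD genes and Atp1b2 was not tested.

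**Figure D2:**
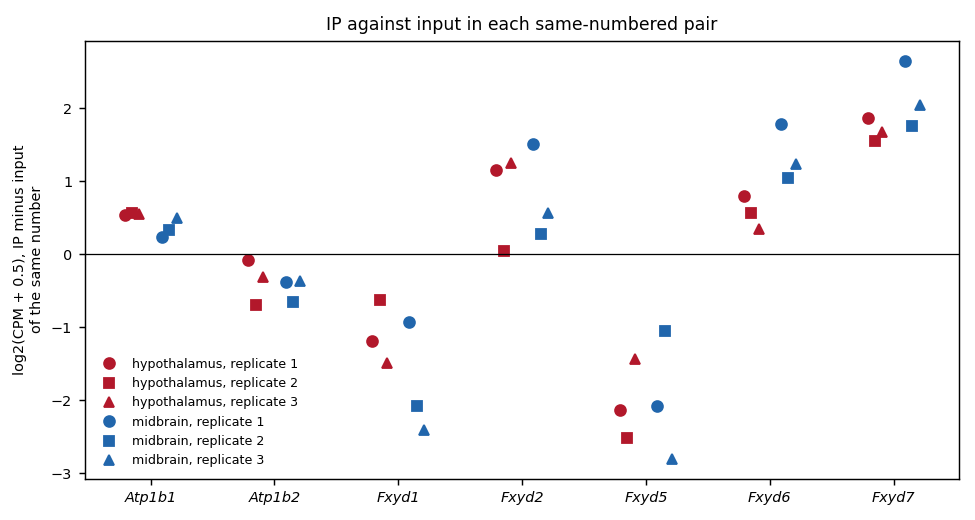
Difference of IP and input in log2(CPM + 0.5) for each same-numbered pair of libraries, red for hypothalamus and blue for midbrain, with a symbol shape for each number. Atp1b1 lies between 0.24 and 0.56 and Fxyd7 between 1.55 and 2.65, while Fxyd1 and Fxyd5 lie below 0 in all 6 pairs.

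The median log2 fold change of the 7 genes was 0.55 in the hypothalamus and 0.34 in the midbrain, beside -0.0816 and -0.0473 over all genes tested. All hypothalamus IP libraries lay above all hypothalamus input libraries for Fxyd2 and Fxyd7, as for 19.7% of all genes, and below them for Fxyd1 and Fxyd5, as for 27.3%. In the midbrain the IP libraries lay above for Fxyd6 and Fxyd7, as for 21.1% of all genes, and below for Fxyd1 and Fxyd5, as for 27.8%. All 7 genes had 1 direction over the 6 same-numbered pairs, as did 49.7% of all genes. Nothing is read from these counts, since the genes were chosen from this contrast.

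Setting the beta subunits side by side per length of exon sequence, Atp1b1 made up most of their RNA in every library. The 3 beta subunits Atp1b1, Atp1b2 and Atp1b3 were expressed as CPM per kilobase of the union of their exons. The share of Atp1b1 was 81 ± 0.751% in the hypothalamus IP and 69.6 ± 4.02% in the hypothalamus input, and 83.2 ± 0.907% in the midbrain IP and 73.8 ± 0.586% in the midbrain input (SD, n = 3 each). The share of Atp1b2 was 15.3 ± 0.757% in the hypothalamus IP and 24.9 ± 3.44% in the hypothalamus input, and 14.2 ± 1% in the midbrain IP and 22.2 ± 0.896% in the midbrain input. The shares of IP and input did not overlap in either region for either gene, although the CPM of both genes did. In the hypothalamus IP the share of Atp1b1 ran from 80.6% to 81.9% while its level ran from 839 to 2270 CPM. That of Atp1b2 ran from 14.8% to 16.2% while its level ran from 207 to 604 CPM. All 3 beta subunits were highest in replicate 1 of that group, so their shares varied less than their levels. Atp1b3, a subunit of broad expression, made up between 2.52% and 6.19% in any library.

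Fxyd7 and Fxyd6 had the largest shares of FXYD RNA per length of exon union. Among the 5 FXYD genes, the share of Fxyd7 was 65.1 ± 10.3% in the hypothalamus IP and 43.8 ± 8.92% in the hypothalamus input, and 73.7 ± 3.37% in the midbrain IP and 53.6 ± 2.39% in the midbrain input. The share of Fxyd6 was 32.5 ± 10.7% in the hypothalamus IP and 47.3 ± 10.2% in the hypothalamus input, and 24.9 ± 3.13% in the midbrain IP and 32 ± 5.06% in the midbrain input. The share of Fxyd1 was 1.35 ± 0.501% in the hypothalamus IP and 6.56 ± 0.424% in the hypothalamus input, and 0.909 ± 0.16% in the midbrain IP and 11.9 ± 2.43% in the midbrain input. In the input of both regions only Fxyd7 and Fxyd6 had a larger share than Fxyd1, and its share in each input library lay above every IP library. These shares depend on the model length, as Fxyd7 has 693 bp of exons and Fxyd6 has 4107 bp. With the longest transcript in place of the exon union Fxyd7 made up 51.1% in the hypothalamus IP, 29% in the hypothalamus input, 60.9% in the midbrain IP and 35.2% in the midbrain input, so in the inputs it then lay below Fxyd6 (53.8% in the hypothalamus and 36.6% in the midbrain). The share of Fxyd1 was then 3.45% in the hypothalamus IP, 14.2% in the hypothalamus input, 2.45% in the midbrain IP and 25.5% in the midbrain input.

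**Figure D3:**
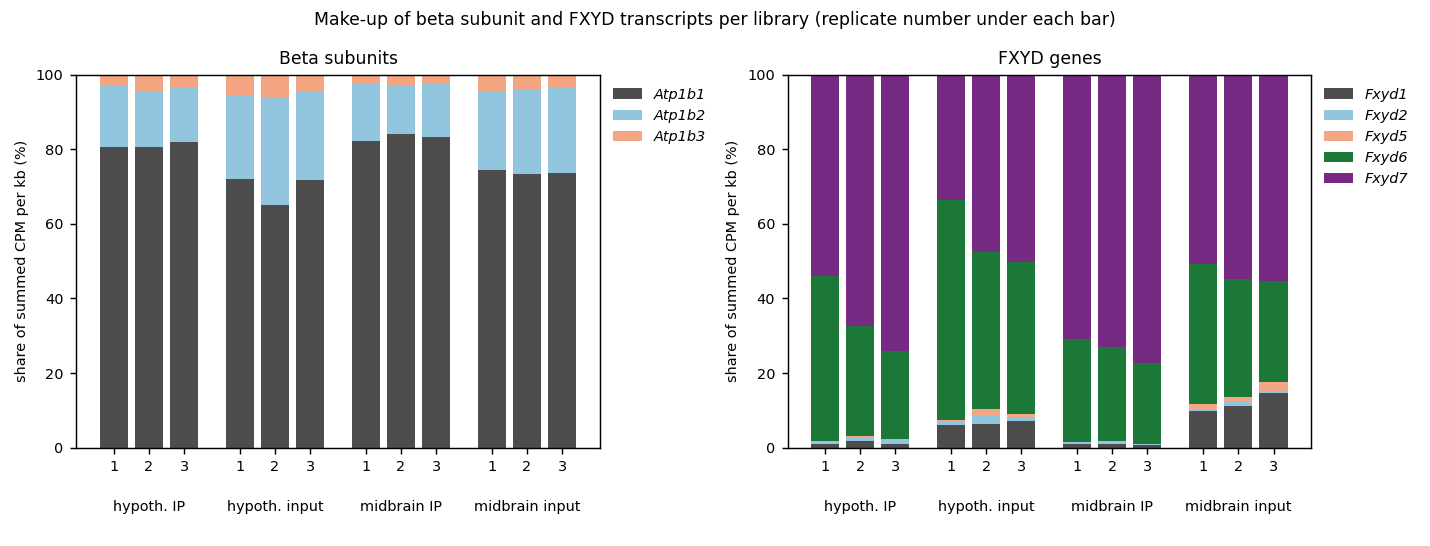
Share of each gene in the summed CPM per kilobase of exon union, in percent, of the 3 beta subunits (left) and the 5 FXYD genes (right), with 1 bar per library and the replicate number below it. Atp1b1 fills 80.6% to 84% of the beta subunits in IP libraries and 65% to 74.5% in input libraries, and the Fxyd1 band is wider in input than in IP.

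Levels were next compared between the regions, a difference that the choice of genes did not use. For Fxyd7 the choice did use IP and input of both regions, so its tests here are not independent of the choice. Between the IPs, 0 of the 7 genes passed an adjusted p of 0.05 in edgeR's quasi-likelihood test, where 4.26% of all genes did. This fit had no replicate block, although the number was taken as pairing here, so the fit with the block is given too. At an unadjusted p under 0.05 there were 0 in edgeR, where 18.1% of all genes were. DESeq2 and limma-voom had 1 each and also called 0, where they called 9.93% and 3.82% of all genes. Atp1b1 averaged 1420 ± 752 CPM in the hypothalamus IP and 2120 ± 466 CPM in the midbrain IP, a log2 fold change of -0.58 (SE 0.40, 95% interval -1.36 to 0.20, adjusted p = 0.491). Atp1b2 averaged 362 ± 212 CPM in the hypothalamus IP and 486 ± 148 CPM in the midbrain IP (-0.42, SE 0.38, adjusted p = 0.618). Both beta subunits passed once the replicate number was fitted as a block, where 11.2% of all genes were called. They also passed without the 4 libraries numbered 1, where 834 genes in all were called. With the block, Atp1b1 was at -0.69 (SE 0.15, adjusted p = 0.00994) and Atp1b2 at -0.52 (SE 0.15, adjusted p = 0.0385). Without the libraries numbered 1, a choice made after the data were seen, Atp1b1 was at -0.91 (SE 0.18) and Atp1b2 at -0.75 (SE 0.15), both with an adjusted p of 0.0214.

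Fxyd2 had all 3 hypothalamus IP libraries above all 3 midbrain IP libraries, where 10.0% of genes did. Its log2 fold change was 1.07 (SE 0.51, interval 0.08 to 2.06, adjusted p = 0.29). Fxyd7, the gene of highest IP excess, did not pass between the IPs, at 65.6 ± 6.64 CPM in the hypothalamus and 79.7 ± 22.8 CPM in the midbrain (-0.28, SE 0.19, interval -0.65 to 0.09, adjusted p = 0.481). Its interval leaves room for a level up to 0.65 lower on the log2 scale in the hypothalamus. Fxyd6 was at 0.33 (SE 0.40, adjusted p = 0.732), Fxyd1 at 0.39 (SE 0.34, adjusted p = 0.605) and Fxyd5 at -0.53 (SE 0.79, adjusted p = 0.798). Without the libraries numbered 1 none of these was called, with Fxyd1 at 0.84 (SE 0.35), Fxyd6 at 0.19 (SE 0.18), Fxyd7 at -0.07 (SE 0.16) and Fxyd5 at -0.33 (SE 0.81).

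Between the inputs 0 of the 7 genes were called in the fit with no block, where 1.61% of all genes were. The number was taken as pairing here too. At an unadjusted p under 0.05 there were 2, Fxyd2 and Fxyd6, in edgeR's quasi-likelihood test, where 11.2% of all genes were. DESeq2 and limma-voom each had 3 and called 0, where they called 4.29% and 2.09% of all genes. Fxyd6 averaged 133 ± 53.3 CPM in the hypothalamus input and 61.1 ± 12.9 CPM in the midbrain input, with all hypothalamus libraries above all midbrain libraries, as for 11.9% of genes. Its log2 fold change was 1.12 (SE 0.40, interval 0.33 to 1.91, adjusted p = 0.266). It was called with the block (1.06, SE 0.16, adjusted p = 0.00165) and without the libraries numbered 1 (0.87, SE 0.18, adjusted p = 0.0432). Between the inputs the block called 6.05% of all genes, and the fit without the libraries numbered 1 called 286 genes in all. Atp1b1 was at -0.79 (SE 0.40, adjusted p = 0.512) and Atp1b2 at -0.60 (SE 0.38, adjusted p = 0.675). Both were called with the block, Atp1b1 at -0.88 (SE 0.15, adjusted p = 0.00343) and Atp1b2 at -0.65 (SE 0.15, adjusted p = 0.0198). Without the libraries numbered 1 the values were -1.04 (adjusted p = 0.0264) for Atp1b1 and -0.76 (adjusted p = 0.0389) for Atp1b2. Oligodendrocyte markers differed in the same direction as these beta subunits: 3 of 12 were lower in the hypothalamus input than in the midbrain input, and 5 of 12 between the IPs. Of the neuron markers 2 of 12 were lower in the hypothalamus input than in the midbrain input, Nefl (-0.98, SE 0.15, adjusted p = 0.0067) and Nefm (-1.33, SE 0.29, adjusted p = 0.0458), and 0 between the IPs. Of the astrocyte markers 2 of 12 were lower in the hypothalamus IP than in the midbrain IP, Aqp4 (-1.84, SE 0.33, adjusted p = 0.00937) and S100b (-2.42, SE 0.30, adjusted p = 0.000926), and 0 between the inputs. Between the IPs 2 of 8 oligodendrocyte precursor markers, 1 of 12 microglial markers and 2 of 12 endothelial and mural markers were lower too, and 1 of 12 ependymal and choroid plexus markers was higher. The part of these cell types in the regional values of Atp1b1 and Atp1b2 was not tested.

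None of the remaining genes was called between the inputs, with or without the block. Fxyd7 was at 0.21 (SE 0.19, interval -0.16 to 0.58, adjusted p = 0.846), Fxyd1 at -0.32 (SE 0.34, adjusted p = 0.888), Fxyd5 at -0.12 (SE 0.75, adjusted p = 0.994) and Fxyd2 at 1.16 (SE 0.51, adjusted p = 0.409). Fxyd5, which was low in all groups, had an interval from -1.58 to 1.35. Without the libraries numbered 1 Fxyd1 was at -0.52 (SE 0.34) and Fxyd5 at 0.01 (SE 0.78). The difference of the IP against input values between hypothalamus and midbrain was called for 0 of the 7 genes, where 0.0772% of all genes were called. At an unadjusted p under 0.05 there were 0 in edgeR's quasi-likelihood test, where 6.56% of all genes were. DESeq2 and limma-voom called 0, where they called 1.17% and 0.0441% of all genes. Fxyd7 had the narrowest interval, at -0.49 (SE 0.27, -1.02 to 0.04, adjusted p = 0.852). The genes were chosen because Fxyd7 was enriched in both regions, so for Fxyd7 this test is not independent of the choice. Fxyd6 was at -0.79 (SE 0.56, adjusted p = 0.963) and Fxyd1 at 0.71 (SE 0.48, adjusted p = 0.937). Atp1b1 was at 0.21 (SE 0.56, adjusted p = 1), and a difference was not detectable. Without the libraries numbered 1 Fxyd1 was at 1.36 (SE 0.49), Fxyd7 at -0.29 (SE 0.23), Fxyd2 at 0.20 (SE 0.88) in place of -0.09 (SE 0.71), Atp1b1 at 0.14 (SE 0.25) and Atp1b2 at 0.01 (SE 0.21) in place of 0.17 (SE 0.54), with none called.

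**Figure D4:**
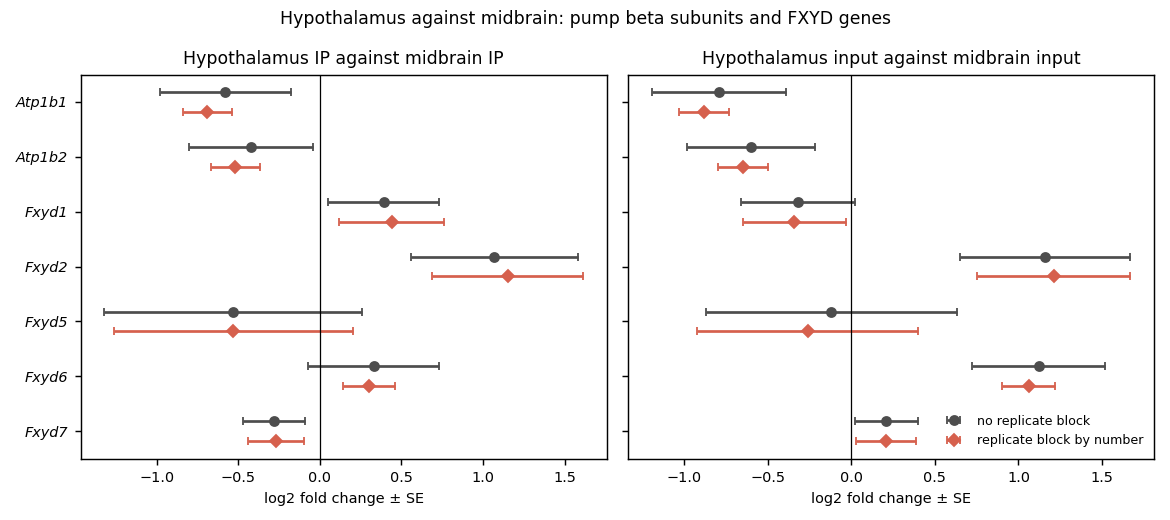
Log2 fold change ± SE of each gene between hypothalamus IP and midbrain IP (left) and between hypothalamus input and midbrain input (right), in grey without a replicate block and in orange with one. Atp1b1 and Atp1b2 lie below 0 in both panels and Fxyd6 above 0 in both, and their error bars are shorter with the block.

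Within each gene the order of the 4 group means held only in part against the spread of libraries. Fxyd7 ran from midbrain IP through hypothalamus IP and hypothalamus input to midbrain input, and of these neighbours only hypothalamus IP and hypothalamus input did not overlap. Fxyd1 ran from midbrain input through hypothalamus input and hypothalamus IP to midbrain IP, and only the middle pair did not overlap. For Fxyd5 the order was midbrain input, hypothalamus input, midbrain IP and hypothalamus IP, with the gap between hypothalamus input and midbrain IP. For Fxyd6 only the lowest neighbours, hypothalamus input and midbrain input, did not overlap, and for Fxyd2 only the highest, hypothalamus IP and hypothalamus input. All neighbours of Atp1b1 and Atp1b2 overlapped.

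The libraries numbered 1 were high for the 3 abundant genes in all 4 groups. The ratio of replicate 1 to the mean of replicates 2 and 3 was 2.28 in the hypothalamus IP, 2.3 in the hypothalamus input, 1.42 in the midbrain IP and 1.6 in the midbrain input for Atp1b1. It was 2.5, 1.89, 1.6 and 1.47 in these groups for Atp1b2, and 2.41, 1.9, 2 and 1.28 for Fxyd6. Of all genes, 11.7% were highest in replicate 1 in all 4 groups and 5.47% had a ratio of at least 1.4 in all 4. Fxyd7 did not share this, with 1.1 in the hypothalamus IP, 0.918 in the hypothalamus input, 1.59 in the midbrain IP and 0.94 in the midbrain input. Fxyd5 went the other way, with ratios of 0.118, 0.547, 0.43 and 0.784.

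**Figure D5:**
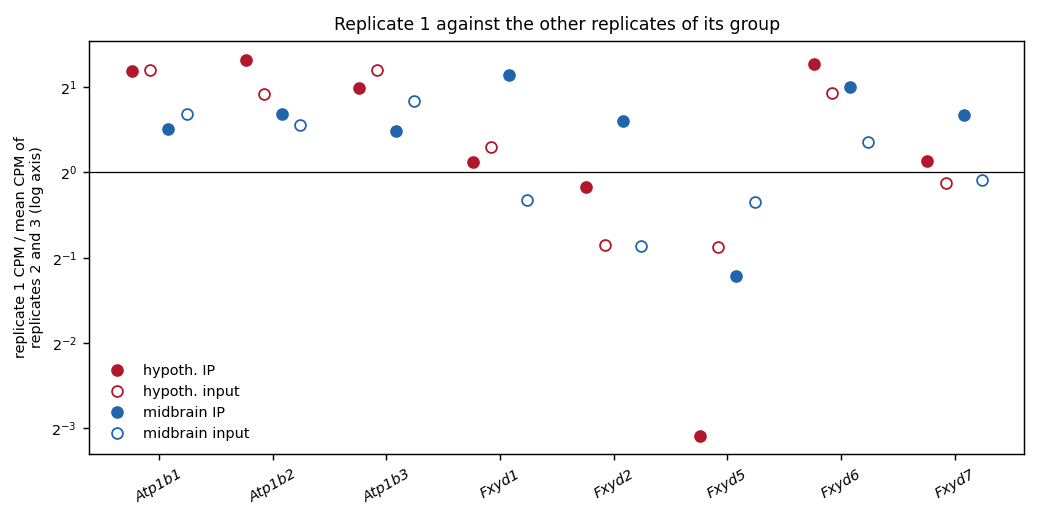
Ratio of the CPM in replicate 1 to the mean CPM of replicates 2 and 3 (log axis) for beta subunits and FXYD genes, red for hypothalamus and blue for midbrain, filled for IP and open for input. Atp1b1, Atp1b2 and Fxyd6 lie above 1 in all 4 groups, while Fxyd5 lies below 1 in all 4.

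A list of 15 other pump subunits and interacting proteins, of which 10 were tested, had 0 genes higher and 3 lower in the hypothalamus IP than in its input in edgeR's quasi-likelihood test, beside 14.2% and 19.6% of all genes. In the midbrain 0 were higher and 2 lower, beside 14.0% and 19.9%. Among them the interacting protein Nkain4 was lower in the hypothalamus IP (log2 fold change -1.70, SE 0.39, adjusted p = 0.00582). Nkain3 was lower there too (-1.51, SE 0.32, adjusted p = 0.00346). Fxyd4, known from kidney and colon, was lower in the midbrain IP (-2.84, SE 0.86, adjusted p = 0.0237). It had only 8, 2 and 3 counts there. Without the libraries numbered 1 Fxyd4 was at -3 (SE 1.29, adjusted p = 0.105) and was not called. Nkain4 (-1.63, adjusted p = 0.00287) and Nkain3 (-1.38, adjusted p = 0.0101) were still called in the hypothalamus. With the replicate number as a block, 2 of the list were called above input and 3 below it in the hypothalamus IP. That fit called 43.4% of all genes. Nkain2 was among those above (0.44, SE 0.13, adjusted p = 0.018). Without the libraries numbered 1 it was not called there (0.55, SE 0.19, adjusted p = 0.0519). In the midbrain, where the number was not taken as pairing, the block gave 1 above input and 5 below. It called 43.9% of all genes there, and Nkain2 was among those below (-0.41, SE 0.13, adjusted p = 0.0226). The median log2 fold change of the list was -0.90 in the hypothalamus and -0.46 in the midbrain.

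A list of 25 transporters, channels and calcium pumps that move sodium, potassium or ions exchanged for them was compared between IP and input. In the hypothalamus IP 7 of these genes were lower than in input and 0 higher, beside 19.6% and 14.2% of all genes. In the midbrain IP 6 were lower and 0 higher, beside 19.9% and 14.0%. The largest were Kcnj10 (-4.61, SE 0.53, adjusted p = 7.3e-05 in edgeR's quasi-likelihood test), a potassium channel of glia, and its partner Kcnj16 (-4.59, SE 0.57, adjusted p = 0.000124) in the hypothalamus. In the midbrain the largest was the glial glutamate transporter Slc1a3 (-4.48, SE 0.59, adjusted p = 0.000194). The medians were -0.25 in the hypothalamus and -0.07 in the midbrain. Slc12a2, a sodium, potassium and chloride cotransporter, was lower in both, at -2.10 (SE 0.42, adjusted p = 0.00249) in the hypothalamus and -2.68 (SE 0.43, adjusted p = 0.000649) in the midbrain. Between the regions 0 genes of either list were called in edgeR's quasi-likelihood test, in the IPs or the inputs. Unadjusted p-values under 0.05 numbered 3 in the IPs and 1 in the inputs for the pump list, and 7 and 4 for the transporter list, where 18.1% of all genes were under it in the IPs and 11.2% in the inputs. DESeq2 called 1 gene of the pump list in the IPs, and 6 transporters in the IPs and 1 in the inputs, where it called 9.93% and 4.29% of all genes. With limma-voom 1 transporter was called in each and 0 of the pump list, where it called 3.82% and 2.09% of all genes. With the replicate number as a block, 3 genes of the pump list were lower in the hypothalamus IP than in the midbrain IP, among them Nkain3 (-0.87, SE 0.24, adjusted p = 0.0322) and Nkain4 (-1.21, SE 0.21, adjusted p = 0.00254). With the block 2 transporters were higher and 14 lower between the IPs, where 11.2% of all genes were called in either direction, and 1 was higher and 6 lower between the inputs, where 6.05% were. The block also gave 3 higher and 10 lower transporters in the hypothalamus IP against its input, where 43.4% of all genes were called. Without the libraries numbered 1, 1 transporter was higher and 7 lower between the IPs and 3 lower between the inputs, and 2 genes of the pump list were lower between the IPs and 1 between the inputs. In that fit 834 genes in all were called between the IPs and 286 between the inputs.

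Pearson's r of log2(CPM + 0.5) over the 12 libraries named the genes most like each member, among genes with a mean of at least 5 CPM. These libraries share regions and fractions, so r mostly ranks genes by group differences and is given as a description. For Fxyd7 they were Elof1 (0.993), Rnf11 (0.992) and Tomm22 (0.987), and for Fxyd6 Nts (0.972), Gnai2 (0.963) and Ly6h (0.961). For Atp1b1 they included Clstn1 (0.981) and Kcnk1 (0.978), and for Atp1b2 Slc16a1 (0.971), Abca3 (0.971) and Ktn1 (0.964). For Fxyd1 they were Pwwp2a (0.956), Pnpla2 (0.951) and Sept2 (0.95), for Fxyd2 they included Hyi (0.926) and Morn2 (0.91), and for Fxyd5 they were Itsn2 (0.975), Metap1d (0.97) and Cpt1a (0.969). Fxyd2 and Fxyd5 averaged under 5 CPM over the libraries, so they could not be named for another member. The other members were not among the 3 genes of highest r of any member.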

How the data were processed

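Raw read counts per gene symbol had been deposited by the authors, 1 table per library and 12 libraries in all. Alignment used STAR 2.0.0e and the mm10 build, and counting used HTSeq, according to the labels (per the submitters' processing notes). The annotation, strand setting and counting mode are not given in the sources used here. Whole-number counts were used as deposited, and 6 summary rows were left out. Of 32531 rows, 23155 had a symbol in GENCODE M21, which gave coordinates and exon lengths. Promoter windows came from RefSeq (GRCm38.p6), and 4 of the 7 genes had an entry.

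The tests were run with edgeR 4.0.16 under R 4.3.3 (robust quasi-likelihood F test, filterByExpr, TMM scaling) in 1 fit of 4 group means, with Benjamini-Hochberg adjustment over 18128 genes at 0.05. Log2 fold changes carry SEs, with intervals of 1.96 SE. DESeq2 1.42.0 and limma 3.58.1 (voom) were alternatives, as were other scalings, filters, replicate blocks and leaving out libraries. The procedure was checked on simulated counts. Floors cover counting error only, since PCR copies of a molecule were not marked, while SEs and intervals carry the spread between libraries. Whether a library holds 1 animal or a pool is not given, so a p-value covers only the spread between libraries.

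Deviations of same-numbered libraries from their group means correlated, per gene, at 0.30, 0.11 and 0.22 between the IPs, 0.38, 0.14 and 0.17 between the inputs, and 0.32, 0.16 and 0.15 between hypothalamus IP and input, so the number was taken as pairing there. Between midbrain IP and input they were 0.19, 0.08 and 0.16. As 0.08 was under the threshold of 0.1, the number was not taken as pairing there. Values were 0.2, 0.07 and 0.1 between hypothalamus IP and midbrain input, and 0.24, 0.09 and 0.14 between hypothalamus input and midbrain IP. Some of these too were not over the threshold. The block by number fits 1 shared effect of each number over all 4 groups, these pairs included. The highest value between libraries of different numbers was 0.04. The genes and gene lists were chosen with earlier results of these data known, and the marker lists of the 2 regions after the data were seen. All 7 genes were named in every comparison, along with up to 4 genes in each direction of the other lists and, per gene, the 3 of highest r, leaving out Gm, Rik and accession-named rows. Values of certain other genes of these lists were left out.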

Additional observations from a re-analysis of the deposited data

How the results depend on the processing

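The count of genes past the threshold between the IPs was 773, with 1800 in DESeq2, 2024 with the replicate block by number and 196 with only the 2 groups fitted, and between 373 and 834 when libraries were left out. Between the inputs it was 291, with 777 in DESeq2 and 1097 with the replicate block, and between 93 and 364 when libraries were left out. For the regional difference it was 14, with 213 in DESeq2, 8 in limma-voom, 105 with the replicate block by number, 98 with the replicate block by region and number, and between 8 and 33 when libraries were left out. The counts for IP against input stayed within 1.5 times of 6123 in the hypothalamus and 6148 in the midbrain under every alternative run. Between the regions the replicate block changed no call of the 7 genes other than those of Atp1b1, Atp1b2 and Fxyd6; in the midbrain IP against input, where the number was not taken as pairing, it moved the count to 7952. Of 784 values of the 7 genes under the alternatives, 21 had the opposite sign, none of them a call. For the regional difference, left-out libraries moved Atp1b1 between -0.3 and 0.73, Atp1b2 between -0.41 and 0.55, Fxyd2 between -0.76 and 0.37 and Fxyd5 between -1.09 and 0.74. Between the IPs they moved Fxyd5 between -1.21 and 0.63 and Fxyd6 between -0.22 and 0.75, and between the inputs Fxyd5 between -0.54 and 0.12, which was 0.03 with scaling by library size alone. The cause was not tested.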
